A study of Mus musculus with 2 samples.

Results

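Transcripts of 8 genes of nitric oxide and arginine metabolism were examined in activated mouse macrophages: Nos2, Gch1, Slc7a2, Ass1, Asl, Arg1, Arg2 and Odc1. They were chosen by symbol, from knowledge of the pathway and with earlier results of these data known. All 8 were found among the 16263 genes that both deposited tables list. The cells were bone marrow-derived macrophages of C57BL/6 mice, from a SIRPα-KO group (genotype SIRPalpha-/-) and a wild-type (WT) group. Both groups were grown from marrow over 5 days with M-CSF, under which marrow precursors become macrophages. All cells then received interferon-γ (20 ng/ml) and LPS (100 ng/ml) for 6 h, with a reagent called mCD47.ex present in both groups. The labels name neither the targeted allele nor the age or sex of the mice, and they do not explain the reagent. Macrophages of 5 mice per group were mixed before RNA was extracted. Each group is therefore 1 library, the spread between mice was not measured, and no difference below has a replicate check or a p-value.

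Inducible nitric oxide synthase, the product of Nos2, splits arginine into nitric oxide, which kills microbes, and citrulline. It needs tetrahydrobiopterin, whose synthesis starts with GTP cyclohydrolase (Gch1), and arginine brought in by the transporter CAT-2 (Slc7a2). Argininosuccinate synthase (Ass1) and lyase (Asl) turn citrulline back into arginine. The arginases Arg1 (cytosolic) and Arg2 (mitochondrial) compete for the same arginine and release urea and ornithine, from which ornithine decarboxylase (Odc1) makes the polyamine putrescine. Interferon-γ with LPS is the textbook inducer of Nos2 in mouse macrophages, and interleukin-4 that of Arg1.

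Levels are given as FPKM, fragments scaled to transcript length and to library size, a unit inferred from the deposited values, so levels of different genes can be set side by side. Ratios are the library labelled SIRPα-KO over WT, on the scale log2(FPKM + 1). A gene was kept with at least 1 FPKM in at least 1 library, and called when its ratio reached 2-fold. The libraries held about 10900000 reads (SIRPα-KO) and 11000000 reads (WT), as estimated from the step between low values. Sirpa, the targeted gene, was at 71.5 FPKM in the library labelled SIRPα-KO and 154 FPKM in WT, so its transcript was present in both. Xist, expressed in female cells, was at 0.91 FPKM in the library labelled SIRPα-KO and 47.5 FPKM in WT, and the Y-linked Eif2s3y was at 21.4 FPKM in SIRPα-KO and listed at 0 in WT. Genotype and sex of the mice cannot be told apart here. Macrophage markers were abundant in both libraries, with Lyz2 at 7208 FPKM (SIRPα-KO) and 7106 FPKM (WT) and the 10 listed markers at a median ratio of 0.01. Of these markers 0 were higher and 1 was lower by 2-fold, Csf1r, the M-CSF receptor, at 109.8 FPKM in the library labelled SIRPα-KO and 247.6 FPKM in WT.

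Of the 8 genes, 3 were lower by at least 2-fold in the library labelled SIRPα-KO (Ass1, Arg2 and Arg1), 0 were higher, and 5 were neither. Among all 10092 genes kept, 4.3% were lower and 3.43% higher by this rule, together 7.73%. The median ratio of the 8 genes was -0.69, against 0.06 over all genes kept. The steps of the pathway did not move together: citrulline recycling differed at Ass1 and not at Asl, and the synthase and its transporter were lower by less than 2-fold while the cofactor enzyme was close to equal. In bulk samples, fewer cells of a type and less RNA per cell cannot be told apart.

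**Figure D1:**
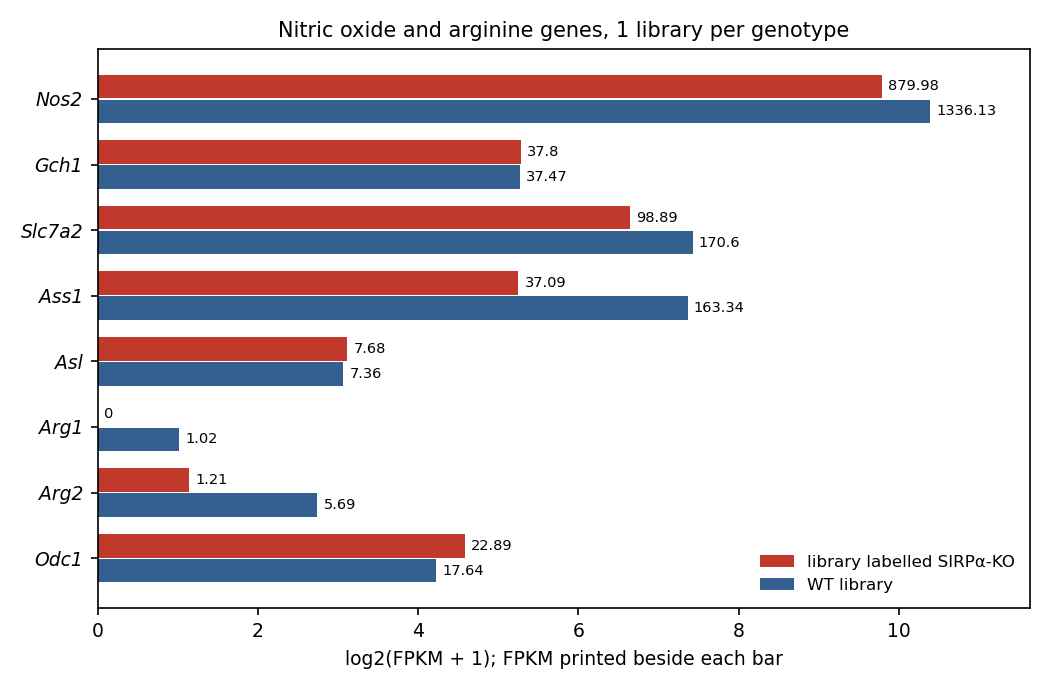
Levels of the 8 genes in the library labelled SIRPα-KO (red) and the WT library (blue), as log2(FPKM + 1) on the horizontal axis with the FPKM printed beside each bar, 1 library per bar and no error. Ass1 reaches 37.09 FPKM in SIRPα-KO, against 163.34 FPKM in WT, whereas Gch1 is at 37.8 in SIRPα-KO and 37.47 in WT.

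Nos2 (gene number 18126, chromosome 11) was the most abundant of the 8 in either library. It was at 880 FPKM in the library labelled SIRPα-KO, where 58 genes had a higher level, and at 1336 FPKM in WT, where 33 did. The WT level was 1.52-fold higher, a log2 ratio of -0.60, short of the 2-fold rule. The SIRPα-KO value stands for about 40209 reads and the WT value for about 61612, so counting error on this gene is small, but the variation between mice is unknown. Nos2 shared none of its 50-base words (0%) with another annotated gene. The other nitric oxide synthase gene listed, Nos3, the endothelial enzyme, was listed at 0 in SIRPα-KO and at 0.02 FPKM in WT.

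Gch1 (gene number 14528, chromosome 14), the rate-limiting enzyme of tetrahydrobiopterin synthesis, was at 37.8 FPKM in the library labelled SIRPα-KO and 37.5 FPKM in WT, a log2 ratio of 0.01. The libraries were thus nearly level for the cofactor enzyme while differing in the synthase that uses the cofactor, and the level of Nos2 over that of Gch1 was 23.3 in SIRPα-KO and 35.7 in WT. Of 8 other genes of tetrahydrobiopterin synthesis and recycling found in the tables, 7 were kept and 0 of them were called in either direction, with a median ratio of -0.16. Pts, the second enzyme of the route, was at 7.85 FPKM in SIRPα-KO and 6.11 FPKM in WT. Spr, which completes the cofactor, was at 3.19 FPKM in SIRPα-KO and 3.23 FPKM in WT. Akr1b3, the most abundant of the list, was at 26.5 FPKM in SIRPα-KO and 33.7 FPKM in WT, and it shares 86.2% of its words with other genes, so its level is uncertain. Gchfr, whose protein inhibits GTP cyclohydrolase when bound to the cofactor, was below the filter at 0.74 FPKM in SIRPα-KO and 0.15 FPKM in WT.

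Slc7a2 (gene number 11988, chromosome 8), which encodes the CAT-2 transporters of arginine, lysine and ornithine, ranked next after Nos2 among the 8 genes in both libraries. It was at 98.9 FPKM in the library labelled SIRPα-KO and 170.6 FPKM in WT, a 1.73-fold higher WT level and a log2 ratio of -0.78. Across all genes kept, 671 had a lower ratio. The level of Nos2 over that of Slc7a2 was 8.9 in SIRPα-KO and 7.83 in WT, so the proportion of these abundant transcripts was similar in both libraries. The tables hold 1 value for the 2 transcripts of Slc7a2, and its isoforms could not be separated.

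A related carrier differed the other way. Slc7a1, which encodes CAT-1, the widely expressed arginine transporter, was at 2.78 FPKM in the library labelled SIRPα-KO and 0.79 FPKM in WT, a log2 ratio of 1.08. Slc7a1 passed the filter only through the SIRPα-KO library, with about 218 reads in SIRPα-KO and 62 in WT, and a filter at 5 FPKM left it out. It was the single called gene among 5 kept of 9 further genes of cationic amino acid transport, where 1 was higher and 0 lower and the median ratio was -0.06. With a pseudocount of 0.1, 1 gene of this list was also lower. Even in SIRPα-KO the level of Slc7a2 was 35.6 times that of Slc7a1, against 216 times in WT. Slc3a2, the heavy chain that partners several amino acid transporters, was at 129 FPKM in SIRPα-KO and 124.5 FPKM in WT. Slc7a7, a light chain that exports cationic amino acids, was at 9.67 FPKM in SIRPα-KO and 14.2 FPKM in WT.

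**Figure D2:**
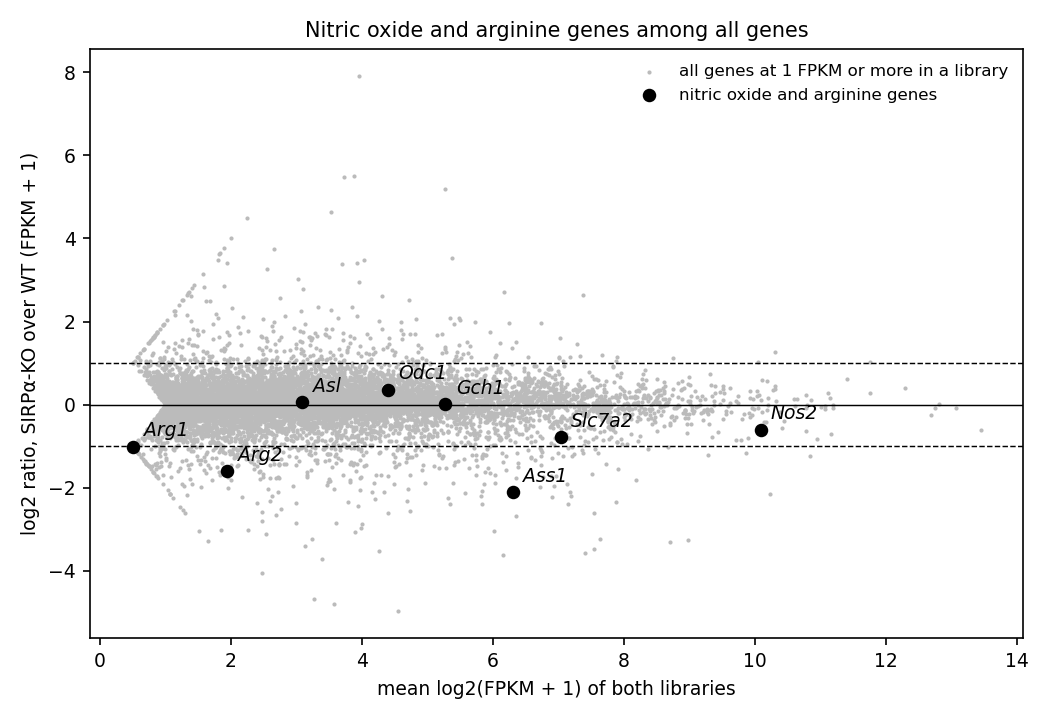
Log2 ratio of the library labelled SIRPα-KO over WT (vertical axis) against the mean log2(FPKM + 1) of both libraries (horizontal axis) for 10092 genes kept, in grey, with the 8 nitric oxide and arginine genes in black. Dashed lines mark the 2-fold rule; Ass1 lies at -2.11 and Arg2 at -1.60, Arg1 sits on the line at the low end, and Nos2 lies far to the right at -0.60.

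Ass1 (gene number 11898, chromosome 2) had the lowest log2(FPKM + 1) ratio of the 8. It was at 37.1 FPKM in the library labelled SIRPα-KO and 163 FPKM in WT, a 4.4-fold higher WT level and a log2 ratio of -2.11. Only 60 of the 10092 genes kept had a lower ratio. The plain FPKM ratio was lower for Arg2 than for Ass1, and with a pseudocount of 0.1 the log2 ratio was -2.14 for both and -3.49 for Arg1, so the order of these 3 genes depends on the pseudocount. In WT the gene stood close behind Slc7a2 among the 8, and in SIRPα-KO it was level with Gch1. This was the only change of order among the 8 genes between the libraries. Ass1 shares 55.3% of its 50-base words with the pseudogene Gm5424, which was listed at 0 in SIRPα-KO and at 0.22 FPKM in WT. Adding the pseudogene left the level of Ass1 over that of Asl at 4.83 in SIRPα-KO and 22.2 in WT.

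Asl (gene number 109900, chromosome 5), the enzyme that acts directly after Ass1, was at 7.68 FPKM in the library labelled SIRPα-KO and 7.36 FPKM in WT, a log2 ratio of 0.05. The values stand for about 202 reads in SIRPα-KO and 195 in WT. Measured against the synthase, Ass1 was scarcer in SIRPα-KO: the level of Nos2 was 23.7 times that of Ass1 in SIRPα-KO and 8.18 times in WT. Asl was not scarcer by this measure, because its level was nearly equal while that of Nos2 was lower in SIRPα-KO.

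The arginases were the least abundant of the 8 in both libraries. Arg2 (gene number 11847, chromosome 12) was at 1.21 FPKM in the library labelled SIRPα-KO and 5.69 FPKM in WT, a 4.7-fold higher WT level and a log2 ratio of -1.60, from about 19 reads in SIRPα-KO and 89 in WT. Arg1 (gene number 11846, chromosome 10) was listed at 0 in SIRPα-KO and at 1.02 FPKM in WT, about 17 reads, and it passed the filter only through the WT library. Its call therefore rests on few reads at the edge of the filter, and no fold is given. The level of Nos2 over the sum of both arginases was 727 in SIRPα-KO and 199 in WT, so in either library transcripts of the synthase far outnumbered those of the arginases. Arg2 shares 17.1% of its words with Vti1b, a gene on the opposite strand whose exons overlap it, and the use of strand is not given in the sources used here. Vti1b was at 26.4 FPKM in SIRPα-KO and 24.1 FPKM in WT, so its own level was nearly equal.

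Some markers of neutrophils and granulocyte precursors were lower along with the arginases and Ass1. Of 12 such markers, 5 were lower (Ngp, Camp, Elane, S100a8 and S100a9), 0 higher and 7 neither by the 2-fold rule, and the summed level of the 12 was 268 FPKM in the library labelled SIRPα-KO and 537 FPKM in WT. Mpo and Cxcr2 had ratios above 0, with Mpo at 3.34 FPKM in SIRPα-KO and 2.38 FPKM in WT and Cxcr2 at 11.7 FPKM in SIRPα-KO and 8.66 FPKM in WT. Elane, at 0.5 FPKM in SIRPα-KO and 3.36 FPKM in WT, passed the filter only through the WT library. None of the 12 was listed at 0 in either library. Their part in the differences of Arg1, Arg2 and Ass1 was not tested. Among other cell types, dendritic cell markers had 2 higher and 1 lower of 6 kept, and their summed level was 49.6 FPKM in SIRPα-KO and 47.2 FPKM in WT. T and NK cell markers had 1 higher of 4 kept, Ifng, at 3.24 FPKM in SIRPα-KO and 0.52 FPKM in WT, a log2 ratio of 1.48. Ifng encodes interferon-γ, which was also added to all cells, and it passed the filter only through the SIRPα-KO library. Its part in the level of Nos2 was not tested. The T and NK cell markers summed to 19 FPKM in SIRPα-KO and 17.2 FPKM in WT, with Cd3g listed at 0 in both. Called markers numbered 0 of 3 kept for B cells (sums 2.51 FPKM in SIRPα-KO and 6.11 FPKM in WT), 0 of 9 for stromal and endothelial cells (37.5 FPKM in SIRPα-KO and 29.6 FPKM in WT) and 0 of 1 for erythroid cells (1.98 FPKM in SIRPα-KO and 1.51 FPKM in WT).

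Odc1 (gene number 18263, chromosome 12), the first enzyme of polyamine synthesis, had the highest ratio of the 8 without reaching the 2-fold rule. It was at 22.9 FPKM in the library labelled SIRPα-KO and 17.6 FPKM in WT, a 1.3-fold difference and a log2 ratio of 0.36. It shares 42.2% of its words with other annotated genes, among them the pseudogene Gm7993 (20.3%), so its level is uncertain where such reads were shared out.

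The RefSeq promoter table held 3 of the 8 genes, and these are a gene called lower (Ass1, the lowest ratio of the 8 with the pseudocount of 1 but not with 0.1), the one nearest equality (Gch1) and the one with the highest ratio (Odc1). Their 250 bases before the annotated start are shown to set those ratios beside the letters, 5′ to 3′ along the gene, from RefSeq on GRCm38.p6. Capitals mark matches on either strand to the E-box CACGTG, the CCAAT box, the GC box GGGCGG, the motif TATAAA and TGACG, the core of the cyclic AMP response element. The windows are chr2:31470020-31470269 on the plus strand for Ass1, chr14:47189414-47189663 on the minus strand for Gch1 and chr12:17544623-17544872 on the plus strand for Odc1.
Ass1: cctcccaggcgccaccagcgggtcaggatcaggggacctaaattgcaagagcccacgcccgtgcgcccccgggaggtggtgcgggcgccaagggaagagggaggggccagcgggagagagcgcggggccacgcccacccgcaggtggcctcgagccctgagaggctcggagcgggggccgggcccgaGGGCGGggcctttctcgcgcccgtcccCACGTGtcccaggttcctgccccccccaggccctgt
Gch1: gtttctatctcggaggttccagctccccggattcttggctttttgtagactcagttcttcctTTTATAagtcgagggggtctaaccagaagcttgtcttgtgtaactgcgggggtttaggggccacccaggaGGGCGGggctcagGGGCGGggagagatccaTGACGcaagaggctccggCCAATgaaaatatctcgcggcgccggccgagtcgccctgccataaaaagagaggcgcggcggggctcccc
Odc1: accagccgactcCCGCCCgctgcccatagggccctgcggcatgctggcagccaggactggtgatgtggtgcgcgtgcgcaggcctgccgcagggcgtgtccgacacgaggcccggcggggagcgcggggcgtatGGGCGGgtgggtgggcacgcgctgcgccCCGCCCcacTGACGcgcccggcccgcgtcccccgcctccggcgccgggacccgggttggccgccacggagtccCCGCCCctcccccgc

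The 3 windows differ in these letters. Ass1 holds 1 E-box, a motif of MYC and HIF proteins, which 6.02% of all 32851 promoter windows of this length also hold. Gch1 holds 1 CCAAT box and 1 TGACG core, which occur in 33.8% and 17.8% of all windows. It also holds 1 TATAAA match (12.4%) on the opposite strand and far from the start. The TGACG core does not set Gch1 apart from Odc1, which also holds 1. Odc1 holds 4 GC boxes, Gch1 2 and Ass1 1, and 32.7% of all windows hold at least 1. The G and C content was 75.6% in Ass1, 59.2% in Gch1 and 80% in Odc1, against a median of 52.4% over all windows. None of the 3 windows holds the interferon-γ activated motif TTCNNNGAA (7.02% of all windows) or the letters TTGCNNCAA (1.74%). The latter were searched as a C/EBP type motif, but other forms of C/EBP site were not searched. Whether the windows hold a C/EBP site is therefore not known. The searched motifs do not overlap each other in these windows, and a match describes letters, not a bound site.

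Beyond Odc1, most polyamine genes did not reach 2-fold. Of 20 further genes of polyamine metabolism listed, 17 were kept, of which 2 were higher, 3 lower and 12 neither, with a median ratio of 0.32. The 3 lower genes were Sat1, Smox and Paox, which encode the enzymes that acetylate and oxidize polyamines, and the 2 higher genes were Sms and Mtap, which make spermine and recycle the by-product of its synthesis. The list was drawn up with earlier results of these data known, and the roles of the called genes were compared after their values were seen, without a test.

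Sat1, the spermidine and spermine acetyltransferase that starts polyamine breakdown, was at 95.4 FPKM in the library labelled SIRPα-KO and 227 FPKM in WT, a log2 ratio of -1.24. Smox, spermine oxidase, was at 7.93 FPKM in SIRPα-KO and 17.2 FPKM in WT, a log2 ratio of -1.02. Paox, the oxidase of acetylated polyamines, was at 0.83 FPKM in SIRPα-KO and 2.93 FPKM in WT, a log2 ratio of -1.10. All 3 catabolic genes were thus lower in SIRPα-KO, Smox only just by the 2-fold rule. Paox passed the filter only through the WT library, and 28.9% of the words of Paox occur in other genes.

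Of the higher genes, Sms, spermine synthase, was at 16.6 FPKM in the library labelled SIRPα-KO and 7.23 FPKM in WT, a log2 ratio of 1.10, and it shares 28.7% of its words with the pseudogene Sms-ps. Mtap, which salvages methylthioadenosine, was at 4.66 FPKM in SIRPα-KO and 1.28 FPKM in WT, a log2 ratio of 1.31. Amd1, which supplies the aminopropyl donor, was at 6.9 FPKM in SIRPα-KO and 4.16 FPKM in WT, and Srm, spermidine synthase, at 1.78 FPKM in SIRPα-KO and 1.22 FPKM in WT, both short of 2-fold. Amd1 shares 87.6% of its words with other genes, so its level is uncertain. Sat1 and Sms are both on the X chromosome and differed in opposite directions, in libraries that also differ in sex-linked transcripts, and the part of sex in these differences was not tested.

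The listed regulators of ornithine decarboxylase did not reach 2-fold. Azin1, which protects the enzyme from antizyme, was at 20.1 FPKM in the library labelled SIRPα-KO and 14.1 FPKM in WT. The antizyme Oaz1, which targets it for degradation, was at 96.5 FPKM in SIRPα-KO and 98.6 FPKM in WT, with 53.9% of its words shared with a pseudogene. Eif5a, the translation factor that carries hypusine made from spermidine, was at 397.5 FPKM in SIRPα-KO and 262.5 FPKM in WT, a log2 ratio of 0.60.

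**Figure D3:**
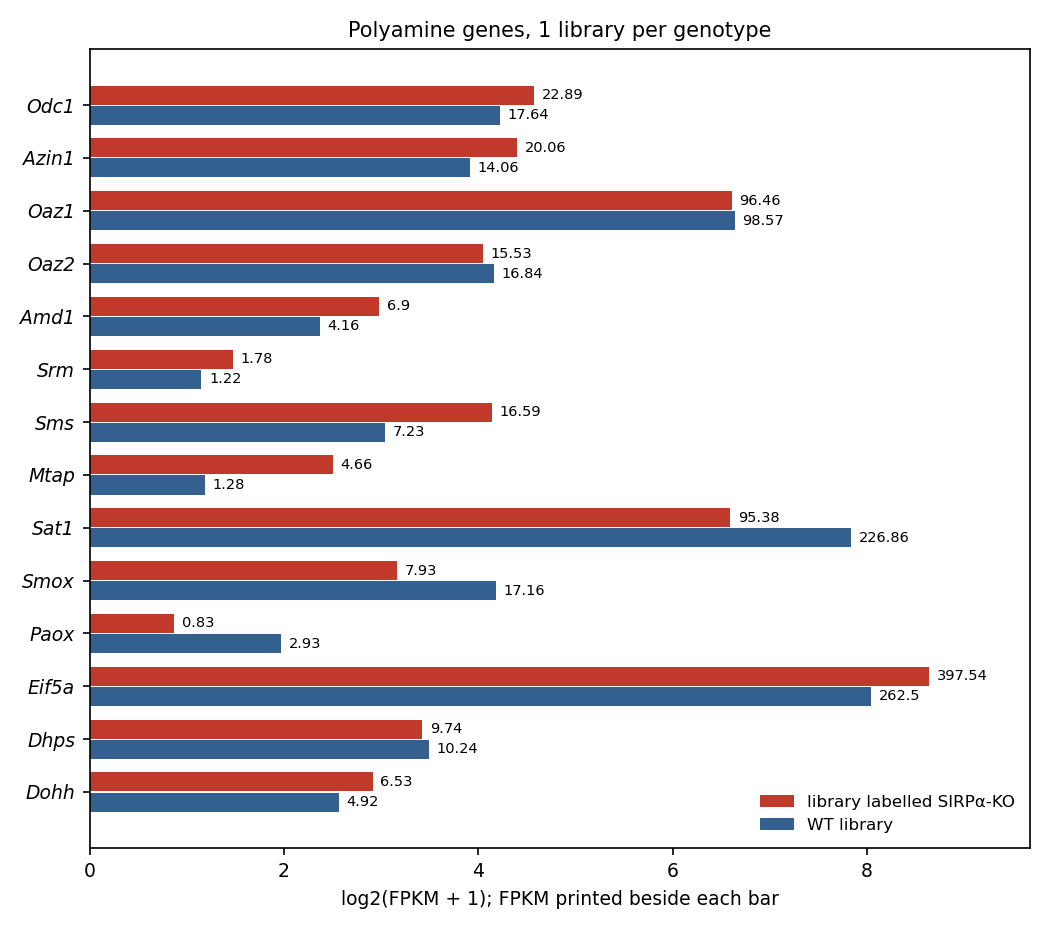
Levels of 14 polyamine genes in the library labelled SIRPα-KO (red) and the WT library (blue), as log2(FPKM + 1) on the horizontal axis with the FPKM printed beside each bar, 1 library per bar and no error. From the top are regulators and enzymes of synthesis (Odc1 to Mtap), catabolic enzymes (Sat1, Smox and Paox, all longer in blue) and the hypusine pathway (Eif5a, Dhps and Dohh).

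Among other routes that use arginine or ornithine, creatine synthesis held the gene with the lowest log2(FPKM + 1) ratio. Gatm, which transfers the amidino group of arginine to glycine and also yields ornithine, was at 60.9 FPKM in the library labelled SIRPα-KO and 321 FPKM in WT, a 5.27-fold higher WT level and a log2 ratio of -2.38. Only 39 of all genes kept had a lower ratio, and the words of Gatm occurred in no other gene (0%). In WT its level was above those of Ass1 and Slc7a2. Gamt, the next enzyme of creatine synthesis, was at 1.82 FPKM in SIRPα-KO and 2.65 FPKM in WT.

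Gatm was the only called gene of 7 kept in the list of urea cycle, ornithine, proline and creatine routes, which had a median ratio of -0.17. Oat, which turns ornithine toward proline and glutamate, was at 11.6 FPKM in the library labelled SIRPα-KO and 9.81 FPKM in WT. Cps1, the entry enzyme of the hepatic urea cycle, was at 0.04 FPKM in SIRPα-KO and listed at 0 in WT. Genes that use arginine for protein, through arginyl-tRNA, or that modify arginine residues had 0 called members of 11 kept, or 1 lower with a pseudocount of 0.1. Their most abundant member, the arginyl-tRNA synthetase Rars, was at 72.3 FPKM in SIRPα-KO and 97.2 FPKM in WT.

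Other regulators of nitric oxide synthases and genes of nitric oxide removal were not called with the pseudocount of 1. Of 7 genes kept in the list of other synthases, synthase regulators and removal, 0 were called, and the median ratio was -0.05. Adh5, which breaks down S-nitrosoglutathione, was at 11.6 FPKM in the library labelled SIRPα-KO and 13.6 FPKM in WT. Ddah2, of the family that clears methylated arginines, was at 1.44 FPKM in SIRPα-KO and 0.41 FPKM in WT, 3.51-fold as plain FPKM and a log2 ratio of 0.79 with the pseudocount of 1. With a pseudocount of 0.1 it was called higher. Ddah2 passed the filter only through the SIRPα-KO library and rests on few reads, about 21 in SIRPα-KO and 6 in WT.

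Genes of the routes that induce Nos2 mostly did not reach 2-fold. Of 15 listed and kept, 0 were higher and 1 was lower, with a median ratio of -0.15. With a 1.5-fold limit, 2 were higher and 2 lower. The lower gene was Cebpb, a transcription factor of macrophage activation, at 41.7 FPKM in the library labelled SIRPα-KO and 126 FPKM in WT, a log2 ratio of -1.58. It shares 18.1% of its words with Tmem189, and without strand information its reads could not be separated from that gene there. Irf1, an interferon-γ induced transcription factor and a direct activator of Nos2, was at 606 FPKM in SIRPα-KO and 481 FPKM in WT. Tlr4, the receptor for LPS, was at 16.3 FPKM in SIRPα-KO and 9.02 FPKM in WT. Ly96, of the same route, was at 56.4 FPKM in SIRPα-KO and 36.2 FPKM in WT. The co-receptor Cd14 differed the other way, at 164 FPKM in SIRPα-KO and 290.2 FPKM in WT. None of these reached 2-fold.

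In the list of factors that induce Arg1, 2 of 12 genes kept were lower and 0 higher, with a median ratio of 0.04. They were Cebpb, which is in both lists, and Cebpa, a myeloid transcription factor, at 1.01 FPKM in the library labelled SIRPα-KO and 5.21 FPKM in WT, a log2 ratio of -1.63. The interleukin-4 receptor chain Il4ra was at 101 FPKM in SIRPα-KO and 98.8 FPKM in WT. Its transcription factor Stat6 was at 33.5 FPKM in SIRPα-KO and 32.5 FPKM in WT, so this route was nearly level at the transcripts of its receptor and factor.

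**Figure D4:**
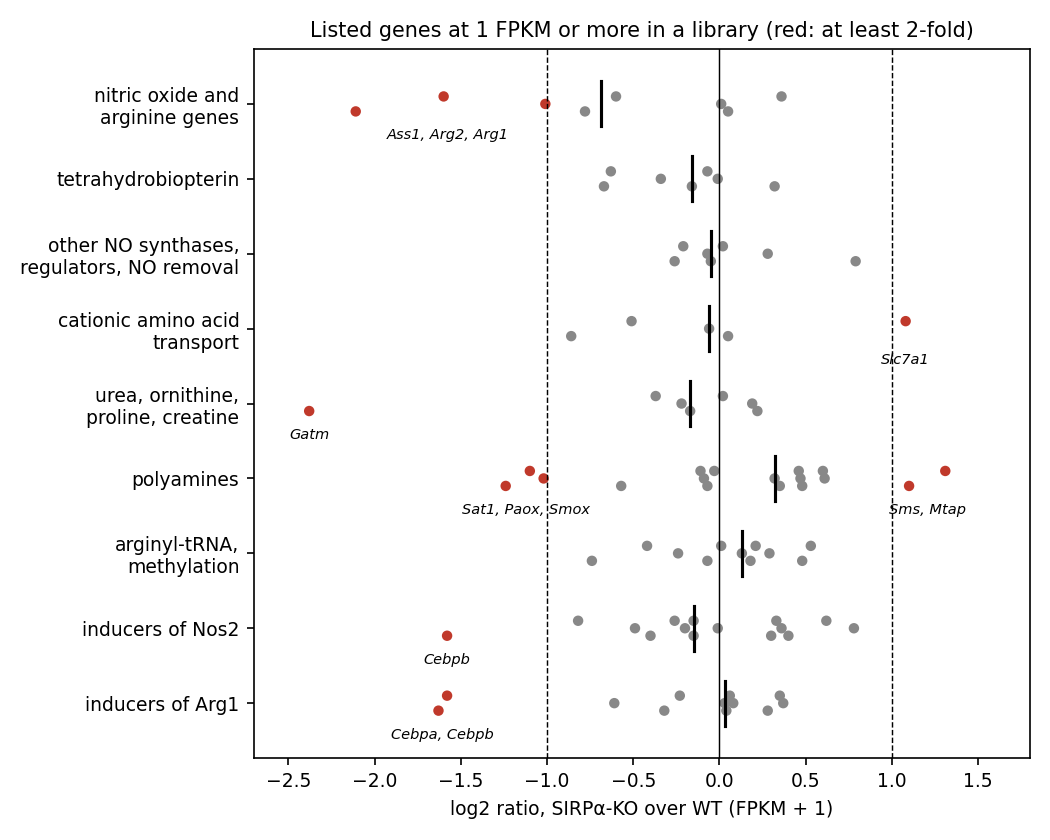
Log2 ratio of the library labelled SIRPα-KO over WT (horizontal axis) for kept genes of the nitric oxide and arginine group and of 8 related lists, 1 point per gene, with the list median as a black bar. Genes at least 2-fold apart are red and named beneath their points from left to right, and the lowest ratio in the plot is Gatm at -2.38.

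The genes whose levels in both libraries were most like those of Nos2 included Cmpk2, Ctsd, Cd52 and Irf8, taken as the nearest by distance over the pair of log2(FPKM + 1) values. Cmpk2, a nucleotide kinase induced by interferon, was the closest, at 841 FPKM in the library labelled SIRPα-KO and 1315 FPKM in WT, 0.07 away on the log2 scale. The distances of the other 3 lay between 0.16 and 0.31. With 2 libraries, such likeness means no more than a similar level and a similar ratio.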

How the data were processed

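RNA sequencing values of 2 libraries were used, 1 of SIRPα-KO and 1 of WT macrophages, each from mixed cells of 5 mice. The authors deposited 1 table per library with 1 value for each of 16263 genes. These deposited values were taken to be FPKM, inferred from a step between low values that scales with transcript length and from sums of 433460 (SIRPα-KO) and 444294 (WT); the file headers name no unit. Per the submitters' processing notes, mm9, R 3.3.3 and DESeq2 were involved, without a stated role, and libraries followed BGI protocols per the labels. The aligner, counter and strand setting: not given in the sources used here. Because FPKM divides by library size, a few abundant genes can shift all others.

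Ratios were differences of log2(FPKM + 1) with the filter and 2-fold rule given above, computed with Python 3.11.15, numpy 2.4.6 and pandas 2.3.3. No test was run because each group is 1 library. Depth was taken as the number of reads that brought low values of transcripts up to 1500 bases closest to whole reads: 68.1% of 655 values in SIRPα-KO and 69.7% of 621 in WT then lay within 0.15 of a whole number. Too few values came out whole to rebuild counts, so read numbers are estimates and no count test was used. The steps were tested on simulated data.

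Transcript lengths, shared 50-base words (either strand) and exon overlaps came from GENCODE release 21 for mouse on GRCm38, later than mm9, so no gene coordinates are given. Symbols of the 8 genes, of the related lists and of the markers were chosen with earlier results of these data known. Named were all 8 genes, called genes of each list or its most abundant member, the 5 genes nearest to Nos2, and Sirpa. A few of these are not reported here. Other listed genes were named after their values were seen. Alternatives were another pseudocount, 2 scalings between libraries, other fold limits and other filters.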

Additional observations from a re-analysis of the deposited data

How the results depend on the processing

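The 3 lower calls among the 8 genes (Ass1, Arg2 and Arg1) were also made with a pseudocount of 0.1, with 2 scalings and with no filter. The scalings were median-of-ratios and trimmed-mean. None of these settings could undo a lower call, so they do not test the calls. The smaller pseudocount widens a ratio, both scalings lower the SIRPα-KO values, and leaving out the filter removes no gene. With a filter at 5 FPKM Arg1 was left out, and with a 3-fold limit Arg1 was no longer called. With a 1.5-fold limit 5 of the 8 genes were lower, Nos2 and Slc7a2 joining. The scalings divided SIRPα-KO values by 1.03 and 1.04. Over all genes, 346 were higher and 434 lower at 2-fold, which is 3.43% and 4.3% of the 10092 kept. The numbers were 589 and 676 with a pseudocount of 0.1, 1103 and 1032 with a 1.5-fold limit, and 130 and 140 with a 3-fold limit. Of genes in the related lists, 3 were higher and 6 lower at 2-fold, 4 and 8 with a pseudocount of 0.1, 8 and 12 with a 1.5-fold limit, and 0 and 2 with a 3-fold limit (Gatm and Cebpa), while with a filter at 5 FPKM 1 was higher (Sms). Whether the related lists differ from all genes in their share of calls was not tested. The signs of the log2 ratios of the 12 called genes were not put to a test by these alternatives. Fold limits and filters do not alter a ratio, and a smaller pseudocount or scalings of 1.03 and 1.04 cannot reverse a 2-fold difference. With Arg2 alone in place of both arginases, the level of Nos2 was 727 times that of Arg2 in SIRPα-KO and 235 times in WT. Levels near 1 FPKM rest on few reads (10 reads on 2 kb are 0.459 FPKM in SIRPα-KO and 0.455 in WT). No paired analysis was possible because each group is 1 library.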
